A study of Mus musculus with 6 samples.

Results

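Transcripts of 10 genes known from macrophages were followed through every cell of a testis single-cell RNA-seq series: 4 genes of MHC class II antigen presentation (Cd74, H2-Aa, H2-Ab1 and H2-Eb1), 3 genes of complement component C1q (C1qa, C1qb and C1qc) and 3 chemokine genes (Ccl3, Ccl4 and Cxcl2). They are 10 of the 32285 genes counted, and they were chosen by their counts of unique molecular identifiers (UMIs, 1 per captured RNA molecule), which were known to be high together in macrophage barcodes of these libraries. Co-detection is therefore given here as a description and without a test. The series holds 6 libraries of testis cells from wild-type C57BL/6 mice, the C57BL/6N substrain in the study's methods, all 8 weeks old. For the last 2 weeks the animals had received either a high-fat diet, in the 3 libraries labelled HFD, or a low-fat control diet, in the 3 labelled LFD. Testes were dissociated with collagenase, DNAse and trypsin before droplet capture, and whole testis suspensions were loaded with no sorting for macrophages. The names of the deposited files give the opposite diet to the sample labels in all 6 libraries, and the labels were followed. If the file names were right, the sign of each diet difference below would be reversed.

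Macrophages are the main immune cells of the testis, where they lie between the seminiferous tubules and on the tubule wall. MHC class II molecules are pairs of an alpha and a beta chain (H2-Aa with H2-Ab1, while the partner of H2-Eb1, H2-Ea, is not expressed in C57BL/6 mice) that carry peptides to the cell surface for CD4+ T cells, and Cd74 is the invariant chain that occupies the peptide groove until the molecule reaches its loading compartment. C1q is assembled from A, B and C chains, the products of C1qa, C1qb and C1qc, and all of these chains are needed for the complete molecule, which starts the classical complement pathway and tags material for uptake. Ccl3 and Ccl4 are CC chemokines that attract monocytes and T cells, and Cxcl2 is a CXC chemokine that attracts neutrophils. Class II and C1q genes are transcribed steadily by many tissue macrophages, whereas chemokine genes are usually induced by a stimulus.

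The proximal promoters are shown first because the genes of each group were detected together. The RefSeq promoter table for GRCm38.p6 held 6 of the 9 genes searched, with no entry matched for H2-Ab1, C1qa or Ccl4. Each sequence below is the 250 bases before the RefSeq start, read 5′ to 3′ on the gene's own strand, and capitals mark motif matches. In H2-Aa (chr17:34287824-34288073, minus strand) and H2-Eb1 (chr17:34305617-34305866, plus strand) the capitals are the core of the class II X box (GCAACT), the Y box (CTGATTGG) and, in H2-Aa, a cAMP response element (TGACGTCA) next to the X box.

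H2-Aa: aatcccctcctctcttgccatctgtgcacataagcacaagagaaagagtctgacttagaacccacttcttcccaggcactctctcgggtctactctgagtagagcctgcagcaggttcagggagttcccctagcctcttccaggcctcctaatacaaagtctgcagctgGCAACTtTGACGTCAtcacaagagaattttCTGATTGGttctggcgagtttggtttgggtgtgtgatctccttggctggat

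H2-Eb1: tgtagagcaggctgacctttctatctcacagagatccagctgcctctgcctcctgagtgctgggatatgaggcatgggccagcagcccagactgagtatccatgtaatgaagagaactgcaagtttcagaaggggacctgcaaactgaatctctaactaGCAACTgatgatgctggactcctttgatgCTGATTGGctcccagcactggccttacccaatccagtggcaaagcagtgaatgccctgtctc

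The X box core began 81 bases before the start of H2-Aa and 91 bases before the start of H2-Eb1. The distance from the X box to the Y box was 30 bases in H2-Aa and 29 bases in H2-Eb1. Of the 32851 promoters of that table, searched on both strands, 9.01% held the X box core, 3.83% the Y box and 1.55% the cAMP response element. The motifs were searched independently and do not overlap in these promoters.

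The Cxcl2 promoter (chr5:90903649-90903898, plus strand) held an NF-kB motif (GGAATTTCC), in capitals, that began 96 bases before the RefSeq start. GENCODE starts this gene earlier, at chr5:90903871, so that the last bases of the window lie within the annotated gene.

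Cxcl2: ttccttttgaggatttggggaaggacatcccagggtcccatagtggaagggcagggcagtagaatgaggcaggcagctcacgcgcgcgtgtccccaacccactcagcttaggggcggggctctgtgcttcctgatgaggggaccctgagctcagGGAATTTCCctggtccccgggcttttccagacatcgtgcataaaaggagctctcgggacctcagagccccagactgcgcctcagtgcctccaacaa

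That motif was found in 0.286% of the promoters. It was not found as these letters in the window of Ccl3, which says nothing about other forms of the motif. The C1qb promoter (chr4:136886201-136886450, minus strand) is printed because C1qb had most of the C1q UMIs outside macrophages, as described below.

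C1qb: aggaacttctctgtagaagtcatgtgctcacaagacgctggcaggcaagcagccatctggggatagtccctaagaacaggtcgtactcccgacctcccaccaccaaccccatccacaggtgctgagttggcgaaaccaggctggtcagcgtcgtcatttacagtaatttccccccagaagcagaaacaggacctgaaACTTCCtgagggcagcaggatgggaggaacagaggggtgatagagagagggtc

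It held the core of an Ets motif (GGAAGT, seen here as its reverse complement in capitals) 53 bases before the start. The same core lay 195 bases before the RefSeq start of C1qc. That window is not printed, and GENCODE places part of it in the first exon of that gene. The core also lay 209 bases before the start of Ccl3, so that 3 of the 6 promoters held it. This short core occurred in 19.7% of all promoters in the table. A match is a string of letters and not evidence of a factor bound there.

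The libraries held 48939 barcodes, between 5753 and 11095 each, with 39196921 to 95845514 UMIs per library. Macrophage barcodes were found with 12 genes that are not among the 10 (Csf1r, Adgre1, Cd68, Lyz2, Mrc1, Cx3cr1, Ms4a7, Fcgr3, Fcgr1, Tyrobp, Fcer1g and Laptm5), and a barcode with at least 3 of them detected entered the macrophage gate. The gate held 251 barcodes, 0.513% of all, of which 63, 35 and 45 came from HFD libraries 1 to 3 and 27, 52 and 29 from LFD libraries 1 to 3. A clustering made without the 10 genes placed 235 of the 251 in 1 macrophage-like cluster of 270 barcodes, which had all 12 marker genes raised. Of the gated barcodes, 23 held exactly 3 of the 12 genes, and 223 barcodes just outside the gate held exactly 2. The libraries shared 286 barcode sequences over all pairs, none of them gated in both libraries.

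A few very deep barcodes weigh on every summed value in the gate. In all, 17 gated barcodes lay above the 90th percentile of UMIs of their library, 5 in HFD library 2, 4 in HFD library 3 and 8 in LFD library 2, and only 3 of these 17 were in the macrophage-like cluster. They held 63.6% of all UMIs in the gate, and 71.1%, 67.0% and 83.4% in those 3 libraries. No doublet caller was run, and the part of doublets among them was not tested. Levels within macrophages are therefore given without these barcodes, unless stated otherwise, in CPM (the gene's share of all UMIs of the same barcodes, on a ppm scale). Sperm-lineage RNA was present in all gated material, with the summed level of the elongating spermatid markers Tnp1, Tnp2, Prm1, Prm2, Gapdhs and Oaz3 between 9717 and 25253 CPM over the 6 libraries. Of the 12 genes of the T and NK cell list, 7 were at 0 in the gate, among them Cd3e, Cd3g, Cd8a and Trac, while Cd3d had 32 UMIs in 20 barcodes, and the summed level of the list was 0 to 24.3 CPM. Of the 5 neutrophil genes, 4 were at 0, S100a8 and S100a9 included, and Csf3r had 6 UMIs in 6 barcodes, with a summed level of 0 to 9.72 CPM. Of the 6 B cell genes, Cd79a and Ms4a1 were at 0, while Ighm, the heavy chain of IgM, was detected in 122 of the 251 barcodes, Cd79b in 25 and Pax5 in 8, and the summed level was 41.0 to 314 CPM. The summed levels of these marker lists are over all 251 gated barcodes, the deepest included, unlike the levels that follow. The part of such cells or their RNA in the values of the gate was not tested.

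Among the 10 genes, class II transcripts took the largest part of the RNA of these macrophages. Cd74 stood first in all 6 libraries, with 17394, 10331 and 12005 CPM in HFD libraries 1 to 3 and 16522, 16928 and 19799 CPM in LFD libraries 1 to 3. The lowest Cd74 value exceeded the highest value of each of the other 9 genes. H2-Aa ranged from 3907 to 6318 CPM, H2-Eb1 from 3383 to 6211 CPM and H2-Ab1 from 3579 to 5713 CPM. The spreads of these alpha and beta chains overlapped throughout, so that no order among them holds beyond the spread of the libraries. UMIs are counted at the 3′ end, 1 per molecule, and the levels carry no correction for transcript length.

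Of the C1q transcripts, those of the A and B chains overlapped in level and those of the C chain were lower. C1qa was at 2726, 1747 and 1882 CPM in the HFD libraries and 2859, 2316 and 2867 CPM in the LFD libraries. C1qb was at 2462, 1754 and 1851 CPM in the HFD libraries and 2353, 2069 and 2510.1 CPM in the LFD libraries. C1qc was below both in each library, at 1569, 1090.4 and 1094 CPM with HFD and 1692, 1126 and 1774 CPM with LFD. Of the chemokine genes, Ccl3 and Ccl4 varied most between libraries. Ccl4 ranged from 2445 CPM in LFD library 3 to 6452 CPM in HFD library 2, Ccl3 from 1011 to 2859 CPM and Cxcl2 from 1359 to 2032 CPM.

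**Figure D1:**
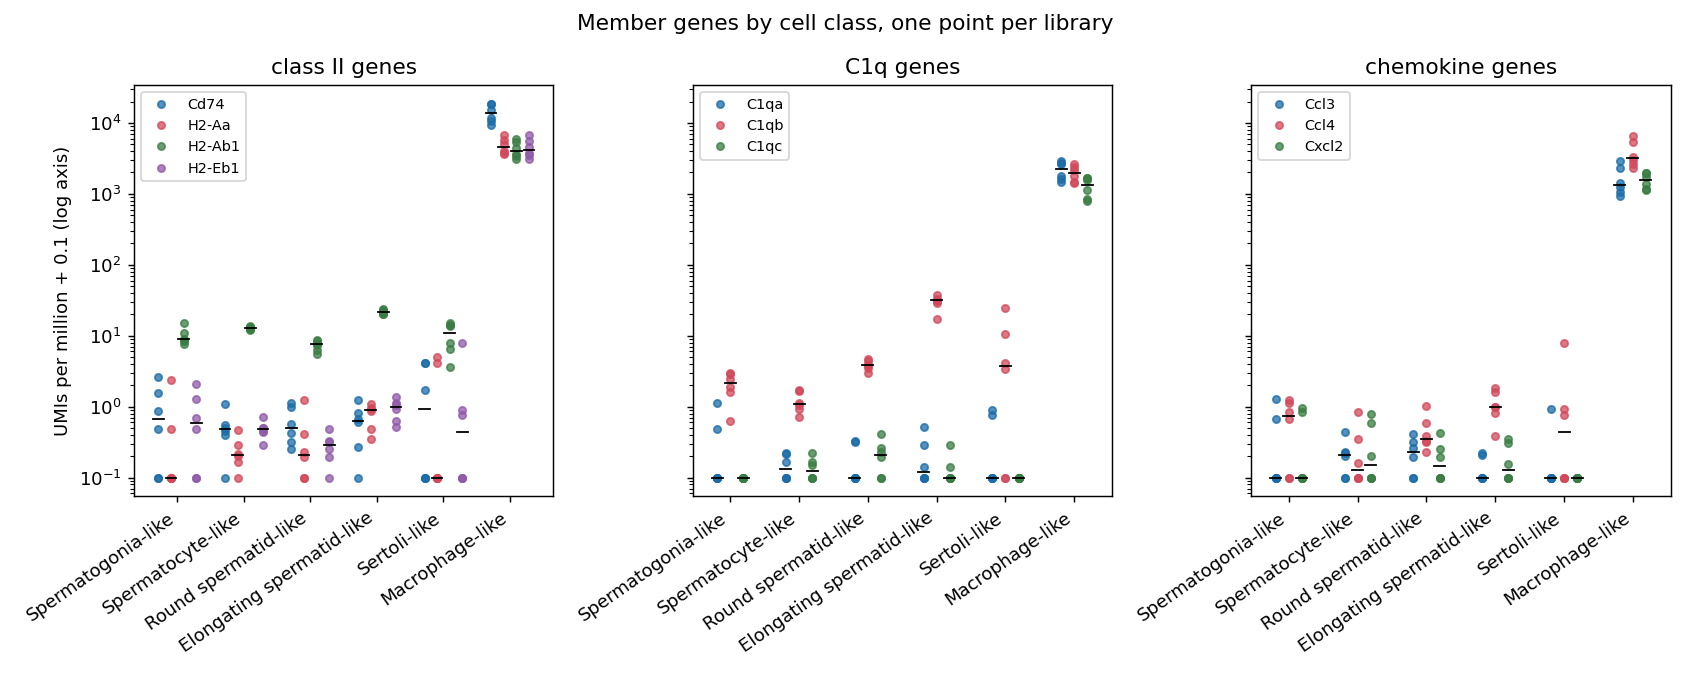
Levels of the 10 genes by cell class, in CPM plus 0.1 on a log axis, with 1 point per library and 1 panel for each of the class II, C1q and chemokine genes. All 10 genes are highest in the macrophage-like class, and in the elongating spermatid-like class H2-Ab1 and C1qb stand above the other members of their groups, with C1qb at 17.3 to 37.6 CPM in the elongating spermatid-like class.

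Other genes of these pathways differed in how far they were shared by the same barcodes. Over all 251 gated barcodes, Ctss, the cathepsin that trims the invariant chain, was detected in 214, H2-DMa and H2-DMb1, the chains of the peptide exchange factor, in 144 and 118, and Ciita, the transactivator of class II genes, in 22. Ctss was at 316 CPM in the gate and 0.0796 CPM outside it. H2-Oa, H2-Ob and Cd80 were near the limit of detection, with 2, 6 and 1 UMIs in the gate. The C1 proteases that join C1q in the circulating complex were scarce, with 2 UMIs of C1ra and 0 of C1s1 in the gate. Complement receptors were detected more widely, C3ar1 in 92 barcodes and C5ar1 in 36. Among other chemokines, Cxcl16 was detected in 155 barcodes, Ccl12 in 68, Ccl2 in 44 and Ccl5 in 7.

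Most macrophage barcodes carried all 3 gene groups at once. At least 1 UMI of class II, C1q and chemokine genes together was found in 215 of the 251 gated barcodes (85.7%). Class II and C1q without a chemokine was found in 17 barcodes, class II alone in 4, C1q alone in 4, class II with a chemokine in 2, C1q with a chemokine in 2, and none of the groups in 7. No gated barcode held a chemokine alone, which allows a share of up to 1.20% of gated barcodes from counting error. The 7 barcodes with none had a median of 37327 UMIs, against 3566 for those with all 3 groups. Without the deepest barcodes, all 3 groups were found in 210 of 234 barcodes (89.7%).

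All 3 groups together were found in 55 of 63, 28 of 35 and 41 of 45 gated barcodes of HFD libraries 1 to 3, and in 23 of 27, 45 of 52 and 23 of 29 of LFD libraries 1 to 3. Each library had this combination in at least 79.3% of its gated barcodes. Of the 10 genes, all were detected in 101 gated barcodes, 9 in a further 84, and at least 7 in 225 (89.6%). Outside the gate, only 6 of 48688 barcodes had at least 7 of the genes, and 43 had all 3 groups, which had a median of 30649 UMIs. With at least 5 UMIs required of each group, 188 gated barcodes kept all 3, and 35 had class II and C1q but fewer chemokine UMIs. The chemokine genes were the group most often missing.

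**Figure D2:**
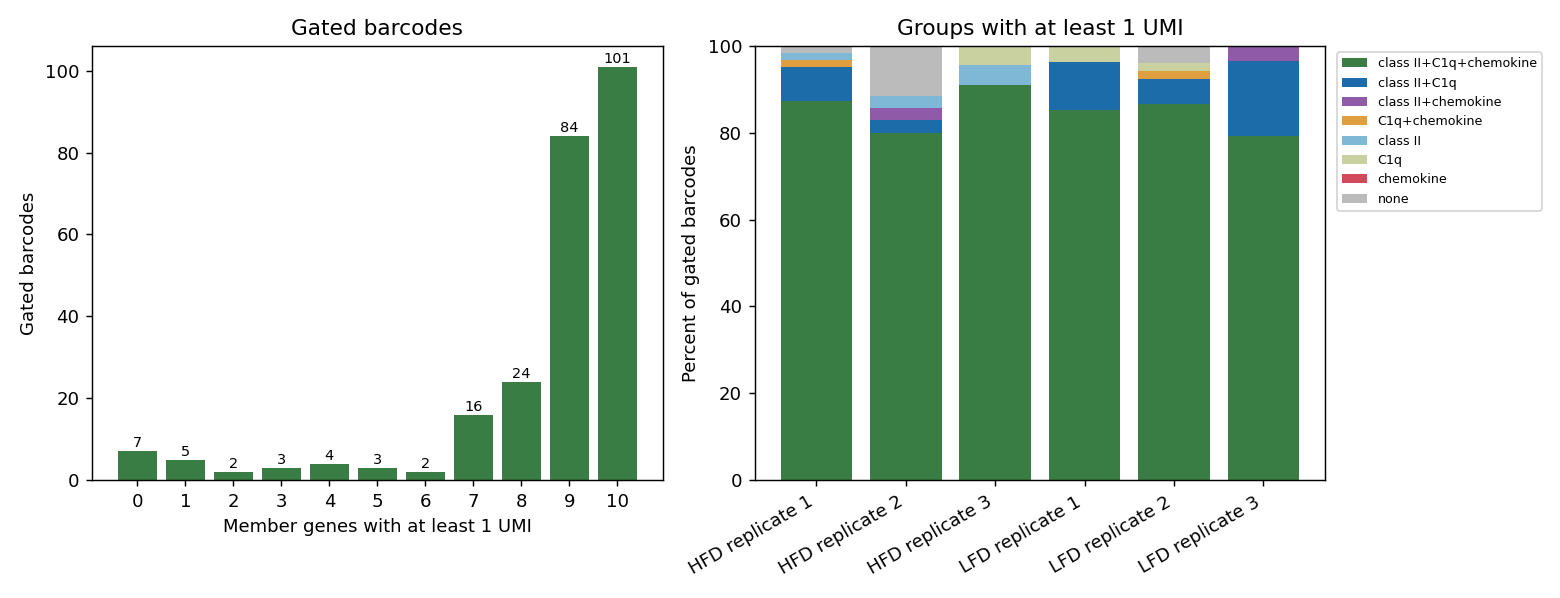
Co-detection in the 251 gated barcodes: the left panel counts barcodes by how many of the 10 genes had at least 1 UMI, and the right panel gives the percent of gated barcodes with each combination of class II, C1q and chemokine genes in each library. The counts pile up at 9 and 10 genes, 84 and 101 barcodes, and the combination of all 3 groups is the largest in each library.

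The genes of each group differed in how they combined. Among the 234 gated barcodes without the deepest, Ccl3, Ccl4 and Cxcl2 were all present in 103, Ccl3 and Ccl4 without Cxcl2 in 61, Ccl3 and Cxcl2 in 13, Ccl4 and Cxcl2 in 9, a single chemokine in 7 (Ccl3), 13 (Ccl4) and 8 (Cxcl2), and none in 20. Cxcl2 was the least often detected, in 136 of all 251 gated barcodes, against 188 for Ccl3 and 191 for Ccl4. The amounts per barcode spread most for the chemokines. Class II genes took a median of 3.22% of a gated barcode's UMIs (10th to 90th percentile, 0.289 to 5.15%), C1q genes 0.562% (0.110 to 0.941%) and chemokine genes 0.515% (0 to 1.90%), with a highest chemokine value of 4.77%.

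Across gated barcodes thinned to 1000 UMIs and centred within library, counts of the class II genes were correlated, with a Pearson r of 0.79 between Cd74 and H2-Aa and 0.71 to 0.79 over all pairs. C1qa and C1qb had an r of 0.43, Ccl3 and Ccl4 of 0.56, and Ccl3 and Cxcl2 of 0.19. The sums of the groups had an r of 0.52 for class II with C1q, 0.49 for class II with chemokines and 0.35 for C1q with chemokines. These are descriptions over all 251 gated barcodes, including the 17 deepest and the 7 with none of the groups. The barcodes share libraries, depth and a background of germ-cell RNA. Of 1493 genes detected in at least 10% of the barcodes, those most like the chemokine sum were Atf3 (0.53), Junb (0.46), Egr1 (0.46), Zfp36 (0.42) and Fos (0.40). Those most like the C1q sum were Tmsb4x (0.68), Fth1 (0.51), Cst3 (0.51), Rps4x (0.50) and Actb (0.49), and those most like the class II sum were Malat1 (0.58), Rps4x (0.55), Tmsb4x (0.54), Rps24 (0.52) and Fth1 (0.50). The lowest value for both class II and C1q was that of Ropn1l, a gene of the sperm flagellum, at −0.38 and −0.39.

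Outside macrophages, C1qb had most of the C1q UMIs and H2-Ab1 most of the class II UMIs. Of the UMIs in the whole series, the gate held 95.4% for Cd74, 93.8% for H2-Aa, 93.2% for H2-Eb1, 94.5% for C1qa, 95.6% for C1qc and 91.6 to 93.3% for the chemokine genes. It held only 35.4% for C1qb and 46.2% for H2-Ab1. C1qb had 1968 UMIs in the gate and 3597 outside it, while C1qa had 2167 and 125 and C1qc had 1238 and 57. H2-Ab1 had 4336 UMIs in the gate and 5048 outside it, while H2-Aa had 4856 and 320 and H2-Eb1 had 4590 and 337.

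The C1qb UMIs lay mostly in elongating spermatid-like barcodes, named by Tnp1, Tnp2, Prm1, Prm2, Gapdhs and Oaz3. In the 3576 ungated barcodes of these 3 clusters, C1qb had 2208 UMIs, C1qa had 5 and C1qc had 2, so that C1qb made up 99.7% of C1q UMIs. In the macrophage-like cluster the same share was 36.6%. C1qb was at 37.6, 17.3 and 32.4 CPM in the elongating spermatid-like barcodes of HFD libraries 1 to 3 and at 32.1, 29.0 and 30.9 CPM in those of LFD libraries 1 to 3. HFD library 2 was the lowest, and the LFD values lay within the HFD range. C1qb was detected in 40.7% of these barcodes, which had a median of 12222.5 UMIs.

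Among the elongating spermatid-like clusters, C1qb was highest in the cluster led by Nudt16l2, Car2 and Prm2, at 77.1 CPM (95% Poisson interval 71.8 to 82.8, counting error only), then at 32.7 CPM in the cluster led by Cby3, Tnp2 and Tex37, with 896 UMIs of C1qb and 0 of C1qa and C1qc. It was at 17.9 CPM in the third, led by Hemgn and Tuba8. In other germ cells the level was lower, 3.70 CPM in round spermatid-like barcodes (12.3% with a UMI, median 37630.5 UMIs), 1.09 CPM in spermatocyte-like barcodes (2.57%, median 9886.5 UMIs) and 2.04 CPM in spermatogonia-like barcodes. Sertoli-like barcodes, somatic cells taken as a guide to free RNA, had 10.9 CPM and a UMI in 3.44% at a median of 1906 UMIs. Their cluster also had 5 of 6 Leydig markers raised. The Sertoli-like barcodes held 49 UMIs of C1qb, 2 of C1qa and 0 of C1qc. Over single libraries the Sertoli-like level ran from 0 to 24.8 CPM, highest in HFD library 1, where 37 of these 49 UMIs lay. The elongating spermatid-like level of HFD library 2 and the level of the third cluster lay within that range in CPM. The third cluster had a median of 40795.5 UMIs per barcode, against 1906 for the Sertoli-like barcodes. C1qb UMIs per barcode were not compared at equal depth, and the part of RNA free in the suspension was not tested. The Sertoli-like barcodes of HFD libraries 2 and 3 had 0 UMIs of C1qb, which allows up to 23.6 and 19.3 CPM at their depth, so that in HFD library 2 the comparison could not be made. In each of the other 5 libraries the elongating spermatid-like level was above the Sertoli-like level, or its limit, of the same library.

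C1qb lies on mouse chromosome 4 (GRCm38, chr4:136880129-136886187, minus strand, 3 exons in the GENCODE annotation). C1qc (chr4:136889804-136893065) ends 3617 bases upstream of it on the same strand, and C1qa (chr4:136895917-136898803) a further 2852 bases upstream of C1qc. The next gene downstream on the same strand, Ephb2, lies 44141 bases away, and no other annotated gene overlaps C1qb. The counts cannot tell which start site the germ-cell UMIs came from, since only 3′ ends were captured.

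**Figure D3:**
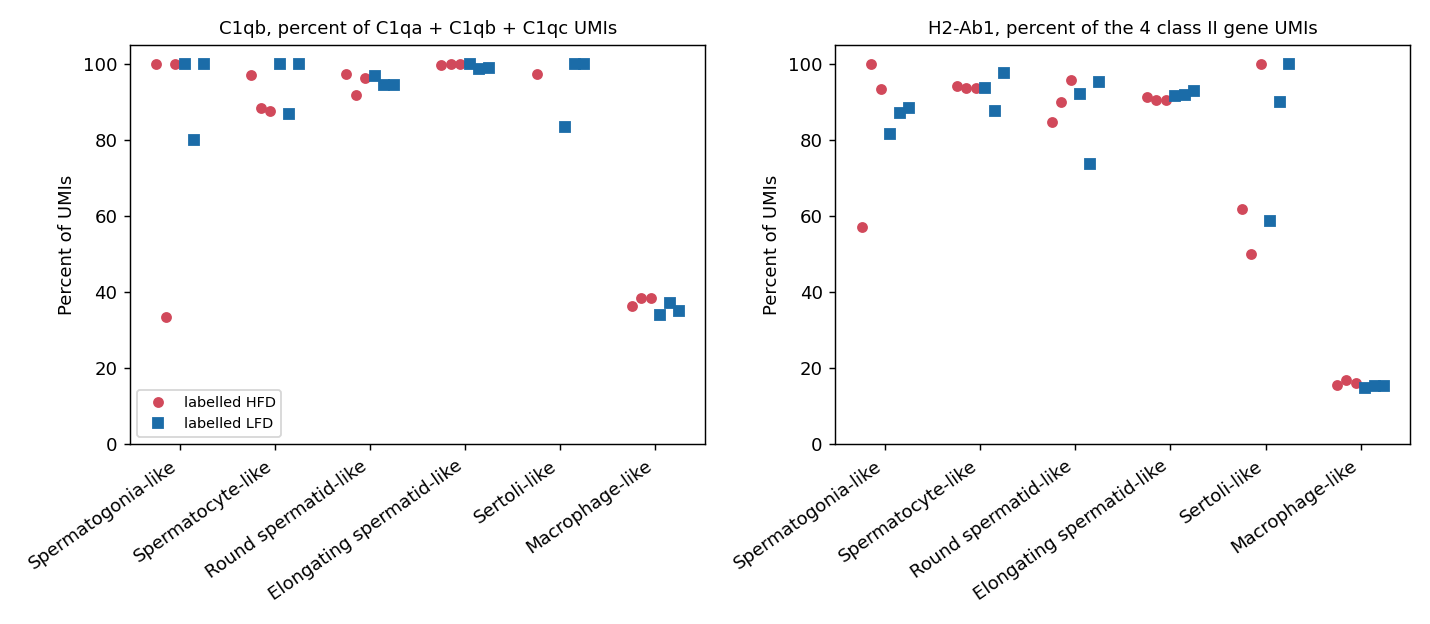
Share of C1q UMIs that came from C1qb and share of class II UMIs that came from H2-Ab1, in percent, by cell class with 1 point per library. Both shares lie low in macrophage-like barcodes, 36.6% and 15.6% over all libraries, and above 90% in elongating spermatid-like barcodes.

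H2-Ab1 (chr17:34257689-34269419, plus strand, in the same class II region as H2-Aa, chr17:34282744-34287823, and H2-Eb1, chr17:34305867-34316674) also had UMIs in barcodes of several germ-cell stages. It was at 23.6, 21.0 and 22.9 CPM in elongating spermatid-like barcodes of HFD libraries 1 to 3 and at 20.2, 20.1 and 21.8 CPM in those of LFD libraries 1 to 3, and the groups overlapped. It had 1493 UMIs there against 48 of H2-Aa, 57 of H2-Eb1 and 36 of Cd74, or 91.4% of class II UMIs, and was detected in 27.3% of the barcodes. Spermatocyte-like barcodes had 12.6 CPM (93.1% of class II UMIs), round spermatid-like barcodes 7.36 CPM (88.8%) and spermatogonia-like barcodes 9.62 CPM (79.0%). The highest value outside macrophages was 40.04 CPM (interval 34.8 to 45.8), in a spermatocyte-like cluster led by Fmr1, Rad51ap2 and Prss50, with 210 UMIs of H2-Ab1, 3 of H2-Aa and 7 of Cd74. Sertoli-like barcodes were at 13.1 CPM, with H2-Ab1 at 67.8% of class II UMIs, and ran from 3.51 to 14.8 CPM over single libraries. The pooled spermatocyte-like, round spermatid-like and spermatogonia-like levels lay below 13.1 CPM, whereas the elongating spermatid-like level was above 14.8 CPM in each library. This comparison is in CPM, and the classes differ in UMIs per barcode, as given above for most of them. The part of free RNA in these levels was not tested.

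Within each library the same split held. C1qb made up 34.1 to 38.5% of C1q UMIs in gated barcodes and 90.6 to 97.8% in the others, and H2-Ab1 14.9 to 16.8% of class II UMIs in gated barcodes and 72.5 to 87.9% in the others. Other class II genes were mixed outside the gate, with H2-DMa at 19.6 CPM and H2-DMb1 at 10.1 CPM over all ungated barcodes, while Ciita was at 0.0117 CPM. The chemokine genes showed no split of this kind. Ccl4 made up 56.6 to 64.5% of ungated chemokine UMIs and 47.3 to 58.1% of gated ones, and its 60 UMIs in elongating spermatid-like barcodes came to 0.880 CPM.

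The diet comparison asked whether macrophage genes differed between the testes of mice fed HFD and LFD. None of the 10 genes passed the test in either the whole testis or the macrophage gate. Counts were summed per library and compared with edgeR's quasi-likelihood test over all genes with Benjamini-Hochberg adjustment. In the whole testis 0 of 20727 genes passed an adjusted p of 0.05 (0%), with 471 at an unadjusted p under 0.05, and DESeq2 called 0 with 444. In the gate 0 of 5575 genes passed (0%), with 29 at an unadjusted p under 0.05, and DESeq2 called 0 with 32. In bulk sums of the whole testis, fewer macrophages and less RNA per macrophage cannot be told apart.

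Ccl3 came nearest. Over all barcodes of a library it was at 5.10, 6.21 and 4.70 CPM in the HFD libraries and 1.40, 4.46 and 3.27 CPM in the LFD libraries. All HFD values lay above all LFD values, but the share of all genes that separated in this way was not counted. Even for a full separation, an exact permutation test of 3 against 3 libraries cannot go below p = 0.1. The log2 difference, HFD minus LFD, was 0.89 (SE 0.33), with an unadjusted p of 0.024 and an adjusted p of 0.986 in edgeR. It was 0.55 without LFD library 1 and 1.28 without LFD library 2, the lowest and highest values with 1 library left out. Ccl4 was at 12.2, 13.8 and 9.09 CPM in the HFD libraries and 5.22, 12.8 and 6.35 CPM in the LFD libraries, with a log2 difference of 0.59 (SE 0.30, adjusted p = 0.986 in edgeR). LFD library 2 lay among the HFD libraries for Ccl4. Cxcl2 was at 3.94, 3.87 and 3.96 CPM in the HFD libraries and 2.93, 4.55 and 3.60 CPM in the LFD libraries, and its log2 difference was 0.15 (SE 0.20). With 1 library left out the difference ran from 0.37 to 1.07 for Ccl4 and from 0.034 to 0.32 for Cxcl2, in both genes lowest without LFD library 1 and highest without LFD library 2.

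The class II and C1q genes had log2 differences from −0.27 to 0.11 in the whole testis. Cd74 was at 41.1, 21.0 and 30.7 CPM in the HFD libraries and 23.1, 47.7 and 48.0 CPM in the LFD libraries, a log2 difference of −0.27 (SE 0.30). C1qb was at 18.3, 9.22 and 10.99 CPM in the HFD libraries and 12.7, 12.6 and 12.3 CPM in the LFD libraries, a log2 difference of 0.11 (SE 0.25). HFD library 1 was the highest and HFD library 2 the lowest for C1qb. Adjusted p-values from edgeR were between 0.986 and 0.9996 for all 10 genes.

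**Figure D4:**
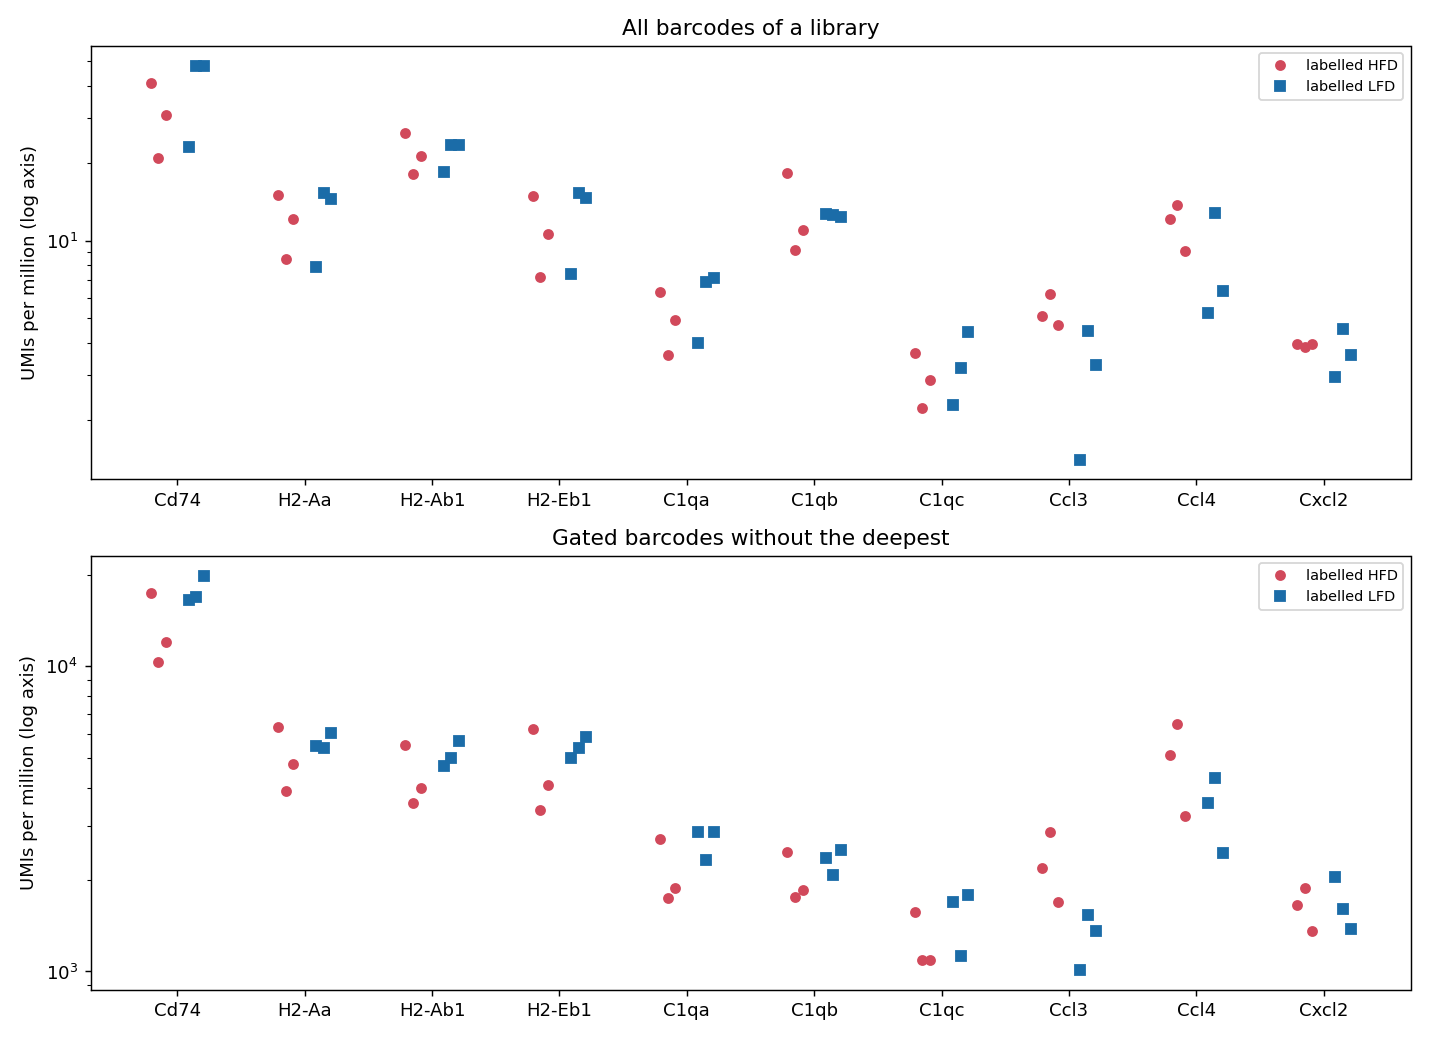
Levels of the 10 genes in CPM on a log axis, 1 point per library, coloured by the diet on the label, for all barcodes of a library and for gated barcodes without the deepest. Ccl3 runs from 4.70 to 6.21 CPM with HFD and from 1.40 to 4.46 CPM with LFD over all barcodes. No gene passed the test.

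Within the gate, fold changes had large standard errors. With all gated barcodes, log2 differences ran from −0.69 (SE 1.00) for C1qc to 0.47 (SE 0.82) for Ccl3, and the adjusted p was 0.9996 for each of the 10 in edgeR. The Ccl3 difference turned negative without HFD library 1 (−0.50) or LFD library 2 (−0.02). Without the deepest barcodes Ccl3 was at 2185, 2859 and 1695 CPM in the HFD libraries and 1011, 1534 and 1352 CPM in the LFD libraries. The means were 2246 ± 584 and 1299 ± 265 CPM (SD, n = 3 each). The groups did not overlap, but the share of all genes that separated in this way was not counted here either. In edgeR 0 of 2718 genes passed without the deepest barcodes. Cd74 was at 13243 ± 3691 CPM with HFD and 17750 ± 1786 CPM with LFD (SD, n = 3 each), and HFD library 1 lay within the LFD range. Ccl4 was at 4940 ± 1617 and 3445 ± 944 CPM, and Cxcl2 at 1632 ± 262 and 1670 ± 334 CPM (SD, n = 3 each).

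The number of macrophages and the share of them that held each group gave no difference beyond the spread. The gate took 0.634, 0.431 and 0.608% of barcodes in the HFD libraries and 0.407, 0.469 and 0.504% in the LFD libraries. The means were 0.558 ± 0.111% and 0.460 ± 0.0489% (SD, n = 3 each), with a two-sided exact permutation p of 0.3, where 3 against 3 libraries cannot go below 0.1. With each gated barcode thinned to 1000 UMIs, class II was detected in 89.3 ± 8.56% with HFD and 94.3 ± 6.95% with LFD (exact permutation p = 0.6, n = 3 each). C1q was detected in 88.6 ± 8.42% and 95 ± 5.92% (exact permutation p = 0.5), and the chemokines in 79.2 ± 4.26% and 82.3 ± 0.719% (exact permutation p = 0.2). Adjusted over these 3 shares each p was 0.6.

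The last comparison asked which other genes differed between macrophage barcodes that held chemokine transcripts and those that did not. Gated barcodes with at least 2 chemokine UMIs (214) were summed apart from those with fewer (37) in each of the 6 libraries, and the sums were compared with edgeR with the library as a block. Of 3191 other genes tested, 236 passed an adjusted p of 0.05 (7.4%), 235 of them higher with chemokines, against a median log2 difference of 0.05 over all genes tested. The deepest barcodes bear on this count, since 12 of the 17 were among the 37. Without them only 3 libraries (HFD 1, LFD 1 and LFD 3) had at least 5 barcodes on both sides, with 7, 5 and 5 chemokine-negative barcodes. In this fit 7 of 939 genes passed (0.745%). None of the deepest lay in HFD library 1, so its negative side kept a barcode of 24764 UMIs. That barcode held no UMI of class II, C1q or chemokine genes, and the next largest on that side had 2822 UMIs. Within the macrophage-like cluster, where 35 of the 270 barcodes were not gated, 26 of 965 genes passed (2.69%), all of them higher with chemokines. The count over all gated barcodes moved with single libraries, to 2 without LFD library 2, 15 without HFD library 2, 42 without HFD library 3 and 386 without LFD library 1, and to 1 without the 27 barcodes that had at least 2 lymphocyte markers. The same contrast for class II and for C1q could not be tested, since only 17 and 16 gated barcodes had fewer than 2 UMIs of these groups, with 5 or more such barcodes in 2 and 1 libraries.

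The genes that passed over all gated barcodes, without the deepest and in the cluster were 5 in number, Atf3, Nfkbia, Zfp36, Il1b and Egr1. These 3 fits share most of their barcodes. Without the 27 barcodes with at least 2 lymphocyte markers only 1 gene passed, Cd83, so that none of these 5 kept the call there. Atf3, a stress-induced transcription factor, was at 2096, 1974 and 1489 CPM in chemokine-positive barcodes of HFD library 1, LFD library 1 and LFD library 3, and at 131, 449 and 0 CPM in the others of the same libraries. The positive barcodes were higher in each library. Its log2 difference without the deepest barcodes was 3.15 (SE 0.47, adjusted p = 0.00176 in edgeR), and within the macrophage-like cluster 2.81 (SE 0.29, adjusted p = 1.16e-05 in edgeR). Il1b, the inflammatory cytokine interleukin-1 beta, was at 1135, 658 and 422 CPM in positive barcodes and 52.3, 224 and 0 CPM in the others. In HFD library 1 the others included the barcode of 24764 UMIs, and its weight in these levels was not tested.

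Nfkbia, the inhibitor that NF-kB itself induces, was at 1607, 1055 and 1203 CPM in positive barcodes of the same 3 libraries and 157, 404 and 0 CPM in the others, a log2 difference of 2.57 (SE 0.49). Zfp36, which binds AU-rich elements and promotes decay of cytokine mRNAs, had a log2 difference of 2.18 (SE 0.42). Egr1, an immediate early transcription factor, had a log2 difference of 1.99 (SE 0.44), the smallest of the 5, and LFD library 3 had 762 CPM of it in negative barcodes against 1315 CPM in positive ones. Adjusted p-values in edgeR without the deepest barcodes were 0.0192 for Nfkbia, Zfp36 and Il1b and 0.0439 for Egr1. The 2 genes lower with chemokines there were Timm23, a part of the mitochondrial import machinery (log2 difference −2.60, SE 0.55), and Nme2, a nucleoside diphosphate kinase (−1.74, SE 0.39). Neither passed in the other 2 fits, and they were picked for naming after their values were seen.

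Listed gene groups divided in the same way in counts. Of the 7 tested genes of the NF-kB and cytokine list, 7 rose in the fit over all gated barcodes (median log2 difference 4.91), 3 of 6 without the deepest barcodes (2.38) and 5 of 6 in the macrophage-like cluster (2.37). Of the immediate early list, 10 of 16 rose over all gated barcodes (3.47), 2 of 16 without the deepest (1.21) and 10 of 15 in the cluster (1.12), among them Fos, Jun, Junb, Ier2 and Klf6. Median differences over all genes tested were 0.05, −0.06 and −0.04 in these fits. Of the resident macrophage list, 0 of 6, 0 of 4 and 0 of 4 passed in edgeR, with Apoe at −0.73 (SE 1.04), Pf4 at 0.39 (SE 0.55) and Selenop at −0.21 (SE 0.35) in the cluster. Without the deepest barcodes the 4 tested genes of this list ran from −2.41 to 0.33, with a median of −0.31.

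Antigen presentation genes outside the 10 passed only with the deepest barcodes included, among these 3 fits. Of the class II presentation list, 2 of 5 rose over all gated barcodes, Cd86 by 4.82 (SE 0.77) and Ifi30 by 3.04 (SE 0.70), and 0 of 4 passed in either of the other fits, where medians were 0.09 and 0.34. Of the class I list, 2 of 5 rose over all gated barcodes, H2-K1 by 1.91 (SE 0.46) and B2m by 3.19 (SE 0.87), and 0 of 4 and 0 of 3 passed in the others. The chemokine list had 3 of 3 over all gated barcodes, Cxcl16, Ccl2 and Ccl12, 0 of 2 without the deepest and 1 of 1, Cxcl16, in the cluster (1.71, SE 0.42). Of the complement list, C3ar1 rose over all gated barcodes (3.96, SE 0.97) and Calr did not pass. Ighm, the only tested gene of the B cell list, rose by 3.82 (SE 0.87) over all gated barcodes and had 0.84 (SE 0.56) without the deepest. Ccr2, the only tested gene of the monocyte and dendritic list, had 2.12 (SE 1.01) and did not pass. The elongating spermatid list had 0 of 6 in each fit, with medians of 0.18, −0.24 and −0.68, the last from Tnp1, Tnp2, Prm1, Prm2, Gapdhs and Oaz3 all below 0 in the cluster, and the part of that background in the contrast was not tested.

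**Figure D5:**
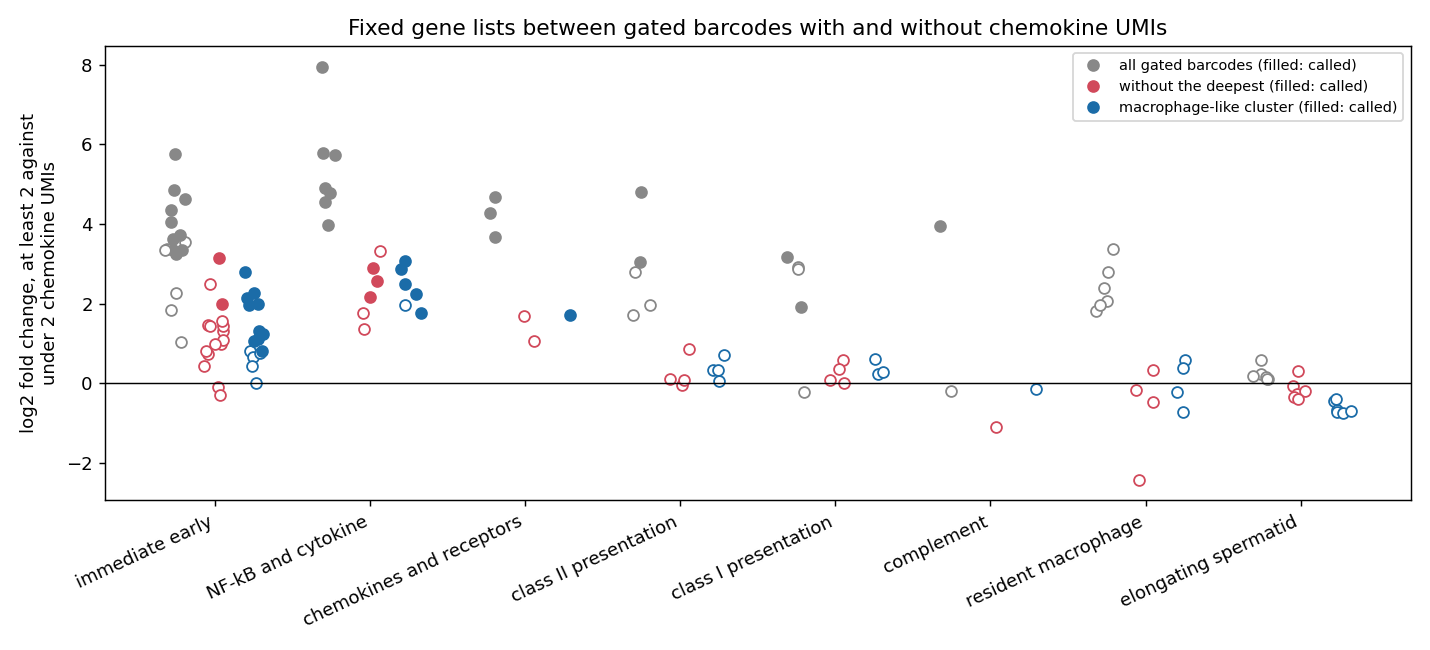
Log2 difference of listed genes between barcodes with at least 2 and under 2 chemokine UMIs, by gene list, with 1 point per gene. The fits are over all gated barcodes, gated barcodes without the deepest, and the macrophage-like cluster, where 35 of 270 barcodes were not gated. NF-kB and immediate early genes lie above 0 in most cases. Without the deepest barcodes their medians fall from 4.91 to 2.38 and from 3.47 to 1.21. The class II presentation median falls from 2.81 to 0.09. That of the resident macrophage list falls from 2.23 to −0.31, with a lowest value of −2.41.

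The calls with the smallest p over all gated barcodes were Cd83, Nfkbiz, Mcl1 and Skil. Cd83, a surface marker of activated antigen-presenting cells, was at 590, 287 and 396 CPM in positive barcodes of HFD libraries 1 to 3 and 608, 284 and 161 CPM in those of LFD libraries 1 to 3, and at 1 UMI over all negative barcodes, in LFD library 1. Its fitted value rests on that single UMI. Nfkbiz, an NF-kB cofactor, had a log2 difference of 5.75 (SE 0.63), Mcl1, an anti-apoptotic member of the Bcl2 family, 2.31 (SE 0.26), and Skil, a regulator of TGF-beta signalling, 4.69 (SE 0.58), each with an adjusted p in edgeR between 0.000787 and 0.00203. Nfkbiz and Mcl1 also passed in the macrophage-like cluster, with 2.87 (SE 0.49) and 1.55 (SE 0.24). The single gene that was lower over all gated barcodes was Pmis2, a sperm protein gene, at −1.56 (SE 0.39).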

How the data were processed

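Testis suspensions from 3 HFD and 3 LFD mice were run on the 10x Genomics droplet platform with 3′ capture of polyadenylated RNA (library kit v2 in the labels, a later version in the study's methods). The deposited matrices hold raw UMI counts that the authors made with Cell Ranger 6.0.1 on mm10, for every gene in every barcode that it called as a cell, with no normalization. Groups follow the sample labels, and 0 columns of other samples were left out. The study's limits of 200 and 40000 genes per barcode removed 0 barcodes. The 10 genes, the gate and the gene lists were chosen with earlier results of these data known.

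Barcodes with at least 3 of 12 macrophage genes formed the gate. Counts were clustered without the 10 genes (scanpy 1.11.5, leidenalg 0.10.2, 2000 variable genes, 30 components, 20 neighbours, resolution 0.3). A cluster was named when at least 3 markers and 40% of a class were raised 2-fold with 20 UMIs or more, a rule set after the clusters were seen, and 12 of 23 clusters, with 9957 barcodes, got a name. Levels by class leave out gated barcodes except in the macrophage-like class. Summed counts were tested with edgeR 4.0.16 (quasi-likelihood, TMM, filterByExpr, two-sided, in R 4.3.3) and again with DESeq2 1.42.0, after the scripts were tested on simulated data. Shares were compared with exact permutation tests (scipy 1.17.1). Intervals are 95% and cover counting error only, and a count of 0 was taken to allow 3. Named genes are the 10, up to 4 rising and 4 falling calls by p, listed genes that passed, and the 5 genes most correlated with each group. Nothing says whether the libraries of a diet came from separate animals beyond the 3 stated per group, so p-values measure the spread between these libraries. Promoters are from RefSeq (GRCm38.p6) and coordinates from GENCODE on GRCm38. Some listed genes are not reported here.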

Additional observations from a re-analysis of the deposited data

How the results depend on the processing

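Of 290 alternatives of the 10 genes by diet, 41 had the opposite sign, and none that was tested crossed the threshold. Those within replicate 1 set 1 library against 1 and had no test, so they could not cross it. Of all genes, 4 passed in the gate with no filter and 93 in the whole testis within the other 4 libraries, those outside replicate 1, against 0. Setting replicate 1 apart was a choice made here, and the labels used name no batch. The smallest adjusted p of the 10 was 0.0780, for Ccl3 in the whole testis with the replicate block. Within the gate, signs turned in the macrophage-like cluster for H2-Aa (0.044), H2-Eb1 (0.0020), C1qb (0.021) and Cxcl2 (0.15), with a gate of at least 5 genes for Cxcl2 (0.22), within replicate 1 for Cd74 (0.074), H2-Aa (0.20), H2-Ab1 (0.23), H2-Eb1 (0.31) and C1qb (0.065), within the other 4 libraries for Ccl3 (−0.37) and Ccl4 (−0.29), and for Ccl4 with a batch term for replicate 1 (−0.0011) or without barcodes with 2 lymphocyte markers (−0.042). In the whole testis they turned for H2-Aa with DESeq2 (−0.0015), within the other 4 libraries for H2-Aa (−0.51), H2-Ab1 (−0.23), C1qb (−0.28) and Cxcl2 (−0.042), and within replicate 1 for Cd74 (0.83), H2-Eb1 (1.02), C1qa (0.66) and C1qc (0.67). Leaving out 1 library at a time gave, in the gate, −2.03 to 0.019 for H2-Eb1, −0.50 to 0.93 for Ccl3, −0.83 to 0.89 for Ccl4 and −1.51 to 0.24 for Cxcl2. In the whole testis it gave −0.31 to 0.21 for H2-Aa, −0.17 to 0.21 for H2-Ab1, −0.51 to 0.14 for H2-Eb1, −0.52 to 0.0029 for C1qa, −0.34 to 0.32 for C1qb and −0.38 to 0.094 for C1qc. The causes were not tested.

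The share of gated barcodes with class II, HFD minus LFD in percentage points, turned positive within replicate 1 (0.529), with a gate of at least 5 genes (2.31) and in the macrophage-like cluster (1.02), and the chemokine share with a gate of at least 2 genes (0.129) or at least 5 (6.62), in the cluster (6.28), without barcodes with lymphocyte markers (0.102), without the deepest (0.390), with no thinning (2.15), thinned to 500 UMIs (2.18) or with at least 2 UMIs required (1.05). No C1q share and no share of barcodes in the gate turned.

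The number of other genes that passed in the chemokine comparison was 463 with DESeq2, 921 with no filter, 111 with no library block, 1204 with a gate of at least 2 genes, 26 in the macrophage-like cluster, 7 without the deepest barcodes, 1 without barcodes with lymphocyte markers, and 2 to 386 leaving out 1 library at a time. The fits in the cluster, without the deepest barcodes and without those with lymphocyte markers tested 965, 939 and 1130 genes, against 3191. Of 415 alternatives of the 29 named genes, 280 stayed on the same side of the threshold, 135 lost the call and 0 turned. The contrasts of class II and C1q, which had too few barcodes in the gate, could be fitted with a gate of at least 2 genes (417 and 1463 genes called), and C1q also with at least 5 UMIs required (456) and in the cluster (28). The chemokine comparison could not be fitted with a gate of at least 5 genes, nor the other alternatives of class II and C1q, for lack of barcodes on one side.

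Same-numbered libraries had correlations of 0.49, 0.03 and 0.26 in their deviations, and not every library correlated best with its own number, so the numbers were not taken as pairs. With the replicate block 24 genes of the whole testis passed, none of them among the 10, and 0 in the gate, H2-Aa turned to −0.0018, and the shares kept their differences, 0.0975 percentage points for the gate (exact sign-flip p = 0.5). Gate size limits all values within macrophages, with as few as 27 barcodes in a library.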
